A study of Mus musculus with 18 samples.

Results

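Cth, Dpyd and Adk encode enzymes of amino acid and nucleoside metabolism, and 4 of the 434 circular RNAs listed in these mouse livers have both ends inside 1 of these 3 genes. The 3 genes were chosen with earlier results of these data known, and within them position alone chose the 4, as every listed circular RNA whose start and end lie within the GRCm38 locus of Cth, Dpyd or Adk. Cth and Dpyd host 1 each and Adk hosts 2. The livers came from 18 male C57BL/6 mice in week 22 of an experiment that began at 6 weeks of age with 45 mice, 15 per group, of which 6 per group were sequenced. The CCl4+PZH group was given the Chinese medicine Pien Tze Huang (PZH) into the stomach each day, and carbon tetrachloride (CCl4), which injures hepatocytes and served to produce liver tumours, into the peritoneum 2 times a week. The CCl4 group was given double distilled water into the stomach and the same CCl4 injections. The control group was given the same water and olive oil injections without CCl4. The CCl4+PZH samples are labelled PTH, read here as PZH because the treatment text names PZH.

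A circular RNA forms when a splice donor joins an acceptor that lies before it in the transcript, and reads across this back-splice junction count it. Its level is not the level of the messenger RNA or of the enzyme, neither of which was analysed here. Cth, cystathionine gamma-lyase, releases cysteine from cystathionine in the last step of transsulfuration, which carries sulfur from methionine towards glutathione, and it is also a source of hydrogen sulfide in liver. Dpyd, dihydropyrimidine dehydrogenase, opens the breakdown of uracil and thymine and clears the drug 5-fluorouracil, chiefly in liver. Adk, adenosine kinase, turns adenosine into AMP and thereby removes a product of methionine-dependent methylation, a cycle that in liver feeds the pathway of Cth.

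The deposited values are CPM, back-splice reads scaled to a library total that the authors chose. Whole reads could be recovered from them, 900 to 2840 per library over the whole table. Summed CPM of the table ran from 116 to 251 in CCl4+PZH livers, from 85.5 to 184 in CCl4 livers and from 40.4 to 550 in controls. For that reason each circular RNA is given on a second scale as well, reads per 1000 reads of the table. Where a value is 0, a count of 3 reads remains possible, equal to between 0.135 CPM (control 3) and 0.918 CPM (control 2) by library, with counting error alone considered. The table lists only circular RNAs present in 9 or more libraries, and one seen in a single group of 6 would not appear. Each library is 1 mouse. The limma SEs, intervals and p-values use a spread between mice shared by circular RNAs of similar level, not the row's own spread. The exact permutation tests use the row's own values.

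The circular RNA of Cth spans 2611 bp of chromosome 3, from 157918426 to 157921036, within a locus of 30834 bp (157894248 to 157925081). Its low end lies 24.2 kb from the low-coordinate end of the locus and its high end 4.05 kb from the other end. That of Dpyd spans 29432 bp of the same chromosome, from 118781836 to 118811267, within a locus of 870816 bp, and begins 220 kb from the annotated start of this plus-strand gene. The first of Adk (circle 1) spans 5739 bp of chromosome 14, from 21234833 to 21240571. The second (circle 2) spans 12547 bp, from 21369071 to 21381617, and lies 128 kb further on in a locus of 395996 bp. Both lie downstream of the 2 annotated starts of Adk, which are 23.6 kb apart on the plus strand. The median span of all 434 was 4691 bp; by span the Dpyd circle ranked 26, Adk circle 2 ranked 95, Adk circle 1 ranked 193 and the Cth circle 285. No other annotated gene overlaps any of the 4. Their exons were not used here, and no sequence is shown because no genome of this build was used.

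**Figure D1:**
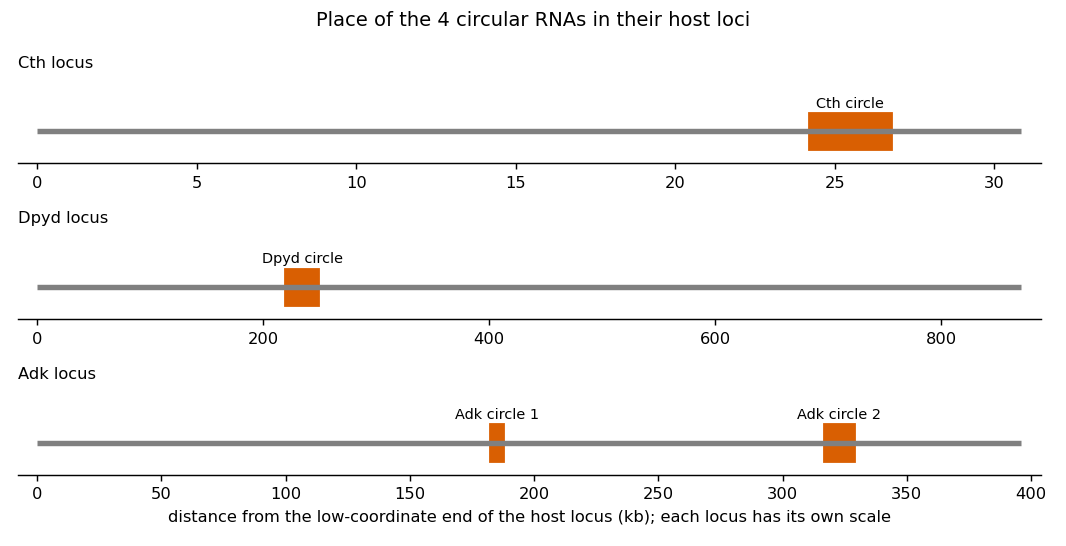
Each grey bar is a host locus and each orange block a circular RNA, placed by distance in kb from the low-coordinate end of the locus, with a separate scale for each locus. The Cth circle covers 8.47% of its locus, the Dpyd circle 3.38%, Adk circle 1 1.45% and Adk circle 2 3.17%, and the 2 Adk circles do not overlap.

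The 4 circular RNAs together took 230 of the 25803 recovered reads, or 0.891%. The Cth circle held 132 of these (57.4%) and had the most reads of the 4 in 10 of 18 libraries. Back-splice reads are counted at 1 junction per circle, so levels in CPM can be compared between circles without a correction for length. Over all 18 libraries the Cth circle averaged 1.12 ± 1.20 CPM (SD, n = 18) and ranked 29 of 434. Adk circle 1 averaged 0.305 ± 0.317 CPM (rank 215), the Dpyd circle 0.289 ± 0.361 CPM (rank 225) and Adk circle 2 0.106 ± 0.137 CPM (rank 426), where the median of all 434 was 0.302 CPM.

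Over all 18 libraries, the Cth circle lay above the next in this order on average, by less than the SD of the difference between libraries. Within libraries, the Cth circle exceeded Adk circle 1 in 12 of 18 and fell short in 5, a mean log2 difference of 1.37 ± 1.67 (SD, n = 18; permutation test on paired values, p = 0.0024, adjusted p = 0.0073 over 3 neighbouring pairs). Adk circle 1 and the Dpyd circle differed by 0.14 ± 1.28 (permutation p = 0.639, adjusted p = 0.639). The Dpyd circle and Adk circle 2 differed by 0.53 ± 1.47 (permutation p = 0.149, adjusted p = 0.224), within the spread between libraries. The order, and with it the pairs tested, was set by mean CPM in these same libraries, so these p-values are no independent support for it. The 18 libraries pool 3 groups, and the order was not the same in each. The Cth circle exceeded Adk circle 1 in 5 of 6 CCl4+PZH livers, in 3 of 6 CCl4 livers, with 2 lower and 1 tied, and in 4 of 6 controls. Adk circle 1 averaged 0.262 CPM against 0.463 CPM for the Dpyd circle in CCl4+PZH livers, 0.289 against 0.242 CPM in CCl4 livers and 0.363 against 0.163 CPM in controls.

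The Cth circle was detected in 6 of 6 CCl4+PZH livers, 5 of 6 CCl4 livers and 6 of 6 controls. In CCl4+PZH livers the lowest value was 0.389, the median 1.16 and the highest 1.91 CPM. In CCl4 livers the lowest was 0, the median 0.516 and the highest 0.734 CPM. In controls the lowest was 0.18, the median 1.32 and the highest 4.84 CPM. The CCl4 values were low and ran over the narrowest range in CPM, though not on the log2 scale. The controls held both the highest values (controls 4, 2 and 1) and the second lowest value above 0 (control 3). All 3 groups overlapped.

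Group means of the Cth circle were 1.13 ± 0.633 CPM in CCl4+PZH livers, 0.414 ± 0.285 CPM in CCl4 livers and 1.82 ± 1.79 CPM in controls (SD, n = 6 each). These rest on 47, 20 and 65 reads in CCl4+PZH, CCl4 and control livers. CCl4 against control gave −1.48 on the log2(CPM + pseudocount) scale, where fold changes of low values are understated (limma SE 0.76, 95% interval −2.97 to 0.01, adjusted p = 0.535 over all 434). The median of all 434 in this comparison was −0.28, so the Cth circle lay −1.19 from it. CCl4+PZH against CCl4 gave 1.27 (limma SE 0.76, 95% interval −0.22 to 2.76, adjusted p = 0.804), against a median of 0.23 for all 434. CCl4+PZH against control gave −0.21 (limma SE 0.76, 95% interval −1.70 to 1.28, adjusted p = 0.988). No difference of the Cth circle passed the threshold of 0.05, and the intervals include both no difference and differences of over 1 log2 unit. CCl4+PZH against CCl4 and CCl4 against control share the CCl4 libraries, so their opposite signs are not separate evidence.

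The order of the group means was the same per 1000 table reads. The Cth circle averaged 5.11 ± 2.08 in CCl4+PZH livers, 2.85 ± 2.03 in CCl4 livers and 6.56 ± 3.11 in controls (SD, n = 6 each, reads per 1000 table reads). In CCl4+PZH livers the values ran from 2.36 to 7.61 with a median of 5.07. They ran from 0 to 5.38 with a median of 3.31 in CCl4 livers, and from 3.27 to 11.4 with a median of 5.79 in controls. The groups overlapped on this scale too; in CPM, 2 of 6 CCl4 livers lay below every control. An exact permutation test of log2 values gave p = 0.0736 in CPM and p = 0.0368 per 1000 table reads for CCl4 against control. For CCl4+PZH against CCl4 the exact permutation p was 0.0433 in CPM and 0.106 per 1000 table reads. None passed adjustment over the whole table, where the adjusted p of these exact tests lay between 0.47 and 0.822.

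**Figure D2:**
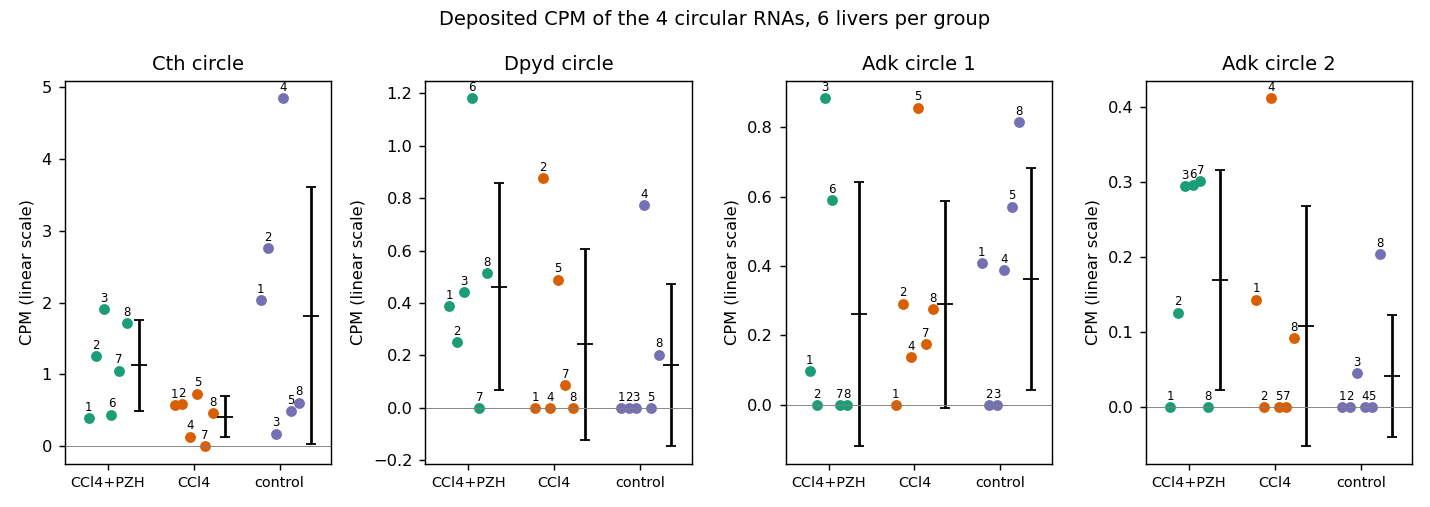
Points are libraries, numbered as in the labels, with deposited CPM on linear axes that differ between panels; black marks give the mean and SD of 6 livers. The Cth circle is lowest as a group in CCl4 livers (0.414 CPM), and the other 3 circles have values of 0 in every group.

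The controls with extreme Cth values were also extreme in summed CPM. Control 4 had the highest Cth value and the highest sum (4.84 CPM of 550 CPM), control 2 the second highest of both (2.76 CPM of 387 CPM), and control 3 a low Cth value with the lowest sum (0.18 CPM of 40.4 CPM). The part of the library total in these values was not tested. Without controls 2, 3 and 4, which carry later accessions than the other 15 libraries, CCl4 against control was −1.12 (limma adjusted p = 0.802) and CCl4+PZH against control was 0.15 (limma adjusted p = 0.994), a change of sign. The sign in CCl4+PZH against control also turned without control 4 (0.18), without control 2 (0.02) or without CCl4+PZH 1 (0.01).

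**Figure D3:**
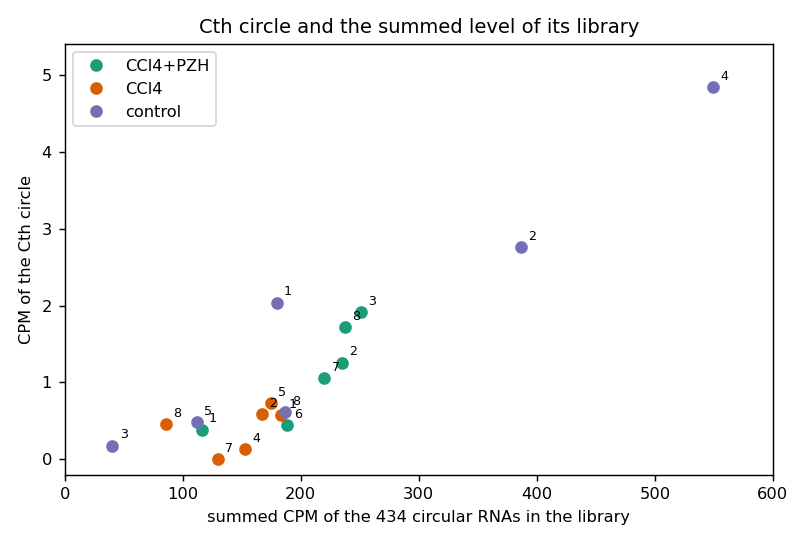
Each point is a library, numbered by replicate, with the summed CPM of the 434 circular RNAs on the horizontal axis and the CPM of the Cth circle on the vertical axis. Controls 4 and 2 lie highest on both axes, at 4.84 and 2.76 CPM, and control 1 (2.04 CPM) lies above livers of a similar sum.

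Summed circular RNAs of hepatocyte genes had the same order of groups as the Cth circle. The gene lists used here were chosen with earlier results of these data known, so this likeness is no independent support. Of 17 hepatocyte genes looked for, 8 hosted 10 listed circular RNAs (Cyp1a2, Slco1b2, Mug1, Mug2, Kng2, Ces1c, Pon1 and Abcc2). Alb, Apoa1, Apob, Ttr, Serpina1a, Cps1, Cyp2e1, Cyp3a11 and Hnf4a hosted none. The test was passed by 0 of the 10 in any comparison, where limma called 0.691% (CCl4 against control), 0% (CCl4+PZH against CCl4) and 0.23% (CCl4+PZH against control) of all 434. Of all 434, 37.1% were positive in CCl4 against control, 69.8% in CCl4+PZH against CCl4 and 52.3% in CCl4+PZH against control. Single circles of the 10 differed in sign. In CCl4 against control 2 of 10 were positive, among them an Abcc2 circle at 43798407 of chromosome 19 (log2 1.23, named after its value was seen). Positive values were found for 9 of 10 in CCl4+PZH against CCl4 and for 5 of 10 in CCl4+PZH against control. Their sum per 1000 table reads had a median of 16.5 (14.6 to 24) in CCl4+PZH livers, 13.8 (7.17 to 23.7) in CCl4 livers and 28.9 (16.5 to 37.2) in controls. Circular RNAs of macrophage genes, 4 from Adgre1 and Mertk among 8 genes looked for, had sums in the reverse order of medians. Beside the same positive shares of all 434, 4 of the 4 were positive in CCl4 against control. Positive values were found for 2 in CCl4+PZH against CCl4 and for 3 in CCl4+PZH against control. The test was passed by 0 of them, beside the same low shares of all 434. Their sum per 1000 table reads had a median of 6.01 (5.5 to 12.8) in CCl4+PZH livers, 11.2 (4.3 to 30.5) in CCl4 livers and 2.82 (0 to 5.3) in controls. Endothelial and cholangiocyte genes hosted 0 listed circular RNAs. Of 7 lymphocyte genes only Ikzf1 hosted 1, and of 8 stellate and matrix genes only Mmp15 hosted 1. Col1a1, Col1a2, Col3a1, Acta2, Des, Lrat and Pdgfrb hosted none, and a single circle does not stand for a cell type. The Ikzf1 circle had medians of 3.66 in CCl4+PZH livers, 3.17 in CCl4 livers and 0.73 in controls, and the Mmp15 circle 2.43, 2.13 and 0.651 in the same groups (reads per 1000 table reads). The order of these sums was not tested. In whole liver, fewer cells of a type and less RNA per cell cannot be told apart, and the part of cell makeup in the values of the Cth circle was not tested.

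The Dpyd circle was above 0 in 5 of 6 CCl4+PZH livers, 3 of 6 CCl4 livers and 2 of 6 controls. Its lowest value in CCl4+PZH livers was 0, the median 0.415 and the highest 1.18 CPM. The lowest in CCl4 livers was 0, the median 0.0437 and the highest 0.876 CPM. In controls the lowest and the median were 0 and the highest 0.774 CPM. Most CCl4+PZH livers had a low value above 0 while 4 controls had none, but the 3 groups overlapped, each with a value of 0.

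Dpyd means were 0.463 ± 0.396 CPM in CCl4+PZH livers, 0.242 ± 0.364 CPM in CCl4 livers and 0.163 ± 0.31 CPM in controls (SD, n = 6 each), from 20, 11 and 6 reads in these groups. The floor of 3 reads in control 2 (0.918 CPM) and control 4 (0.581 CPM) exceeds the CCl4+PZH mean. A level of that size could thus have gone unseen in control 2, which was at 0. Controls 1, 3 and 5 were also at 0, with floors below that mean (0.408, 0.135 and 0.245 CPM). CCl4+PZH against control gave log2 1.17 (limma SE 0.66, 95% interval −0.13 to 2.47, adjusted p = 0.763). CCl4+PZH against CCl4 gave 0.88 (limma 95% interval −0.42 to 2.18, adjusted p = 0.851), and CCl4 against control 0.29 (limma 95% interval −1.01 to 1.59, adjusted p = 0.896). Per 1000 table reads the means were 2.44 ± 2.19 in CCl4+PZH livers, 1.45 ± 2.15 in CCl4 livers and 0.416 ± 0.653 in controls (SD, n = 6 each). CCl4+PZH against control then had an exact permutation p of 0.0455, with an adjusted p of 0.649 over the whole table; in CPM the exact permutation p was 0.113. Presence in 5 CCl4+PZH livers against 2 controls gave Fisher's exact p = 0.242. Without controls 2, 3 and 4 the log2 difference was 1.40 for CCl4+PZH against control (limma adjusted p = 0.718) and 0.53 for CCl4 against control (limma adjusted p = 0.924).

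Adk circle 1 was above 0 in 3 of 6 CCl4+PZH livers, 5 of 6 CCl4 livers and 4 of 6 controls. In CCl4+PZH livers its lowest value was 0, the median 0.0486 and the highest 0.882 CPM. In CCl4 livers the lowest was 0, the median 0.225 and the highest 0.856 CPM. In controls the lowest was 0, the median 0.398 and the highest 0.813 CPM. The highest values of the 3 groups lay close together and every group held a value of 0.

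The means of Adk circle 1 were 0.262 ± 0.381 CPM in CCl4+PZH livers, 0.289 ± 0.297 CPM in CCl4 livers and 0.363 ± 0.32 CPM in controls (SD, n = 6 each). The log2 difference was −0.13 for CCl4 against control (limma SE 0.68, 95% interval −1.48 to 1.21, adjusted p = 0.971), and its sign turned when scaled to the reads of the table (0.16). It was −0.37 for CCl4+PZH against CCl4 (limma 95% interval −1.71 to 0.97, adjusted p = 0.969) and −0.50 for CCl4+PZH against control (limma 95% interval −1.85 to 0.84, adjusted p = 0.908). Per 1000 table reads Adk circle 1 averaged 1.25 ± 1.65 in CCl4+PZH livers (SD, n = 6 each group). It averaged 2.02 ± 1.76 in CCl4 livers and 2.07 ± 2.23 in controls. The smallest exact permutation p of the 3 comparisons was 0.545 in CPM and 0.346 per 1000 table reads. Without controls 2, 3 and 4 the differences were larger, −1.01 for CCl4 against control (limma adjusted p = 0.815) and −1.37 for CCl4+PZH against control (limma adjusted p = 0.729).

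Adk circle 2 was among the most sparsely detected, above 0 in 9 of 18 libraries, the lowest number that any of the 434 had, with 15 reads in all. It was above 0 in 4 of 6 CCl4+PZH livers, 3 of 6 CCl4 livers and 2 of 6 controls, and no library had more than 3 reads of it. Its highest value was 0.301 CPM in CCl4+PZH livers, 0.411 CPM in CCl4 livers and 0.203 CPM in controls, with 0 as the lowest value of each. Means were 0.169 ± 0.147 CPM in CCl4+PZH livers, 0.108 ± 0.16 CPM in CCl4 livers and 0.0414 ± 0.0813 CPM in controls (SD, n = 6 each). Per 1000 table reads CCl4+PZH and CCl4 livers had nearly the same mean, 0.774 ± 0.693 and 0.757 ± 1.05, and controls 0.367 ± 0.568. No difference was called. CCl4+PZH against control gave log2 0.70 (limma SE 0.45, 95% interval −0.18 to 1.59, adjusted p = 0.795), CCl4+PZH against CCl4 0.36 (limma adjusted p = 0.953) and CCl4 against control 0.34 (limma adjusted p = 0.861). Without controls 2, 3 and 4 the value was 0.55 for CCl4+PZH against control (limma adjusted p = 0.972) and 0.19 for CCl4 against control (limma adjusted p = 0.954).

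The 2 circles of Adk were both above 0 in 5 libraries, circle 1 alone in 7, circle 2 alone in 4 and neither in 2. Their summed level was 0.431 ± 0.484 CPM in CCl4+PZH livers, 0.397 ± 0.268 CPM in CCl4 livers and 0.405 ± 0.373 CPM in controls (SD, n = 6 each). Per 1000 table reads the sum was 2.02 ± 2.12 in CCl4+PZH livers (SD, n = 6 each group). It was 2.78 ± 1.70 in CCl4 livers and 2.44 ± 2.32 in controls, so the order of the means depended on the scale. At least 1 Adk circle was above 0 in 5 of 6 CCl4+PZH livers, 6 of 6 CCl4 livers and 5 of 6 controls. On each scale the 3 group means of the sum differed by less than any of their SDs.

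**Figure D4:**
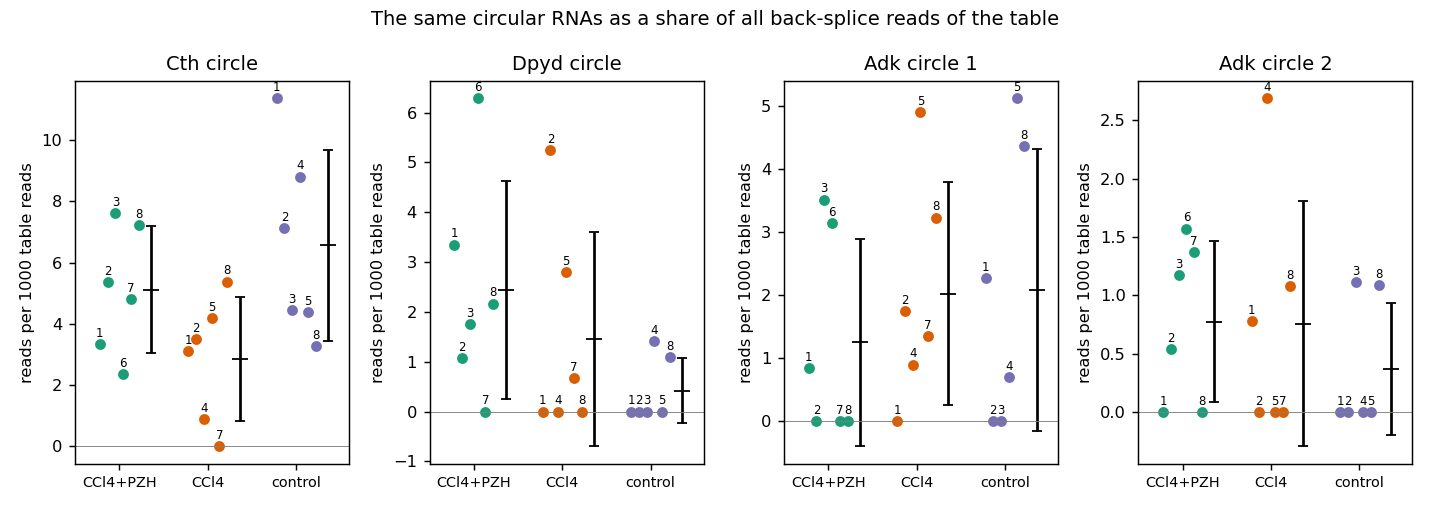
Points are libraries, numbered as in the labels, as reads per 1000 back-splice reads of the table, on linear axes that differ between panels; black marks give the mean and SD of 6 livers. The Cth circle averages 5.11 in CCl4+PZH livers, 2.85 in CCl4 livers and 6.56 in controls, and the Dpyd circle 2.44, 1.45 and 0.416 in the same groups.

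Of the 4 circular RNAs, 0 were called in any of the 3 comparisons by limma, by edgeR or by DESeq2 at an adjusted p under 0.05, and 0 reached an unadjusted limma p under 0.05. For CCl4 against control the same rules called 0.691% (limma), 1.15% (edgeR) and 0.461% (DESeq2) of all 434, and 8.29% had an unadjusted limma p under 0.05. For CCl4+PZH against CCl4 all 3 tools called 0%, with 5.53% at an unadjusted limma p under 0.05. For CCl4+PZH against control they called 0.23% (limma), 0.461% (edgeR) and 0.23% (DESeq2), with 5.07% at an unadjusted limma p under 0.05. Against shares this low, 0 of 4 is no result about the 4 as a set.

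Signs were mixed. In CCl4 against control 2 of the 4 were positive, with a median of 0.08, against 37.1% positive and a median of −0.28 over all 434. In CCl4+PZH against CCl4 3 of 4 were positive, with a median of 0.62, against 69.8% and 0.23. In CCl4+PZH against control 2 of 4 were positive, with a median of 0.25, against 52.3% and 0.02. Scaled to the reads of the table, the medians over the 4 were 0.24, 0.44 and 0.075 in the same comparisons, against −0.03, 0.03 and 0.01 over all 434.

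**Figure D5:**
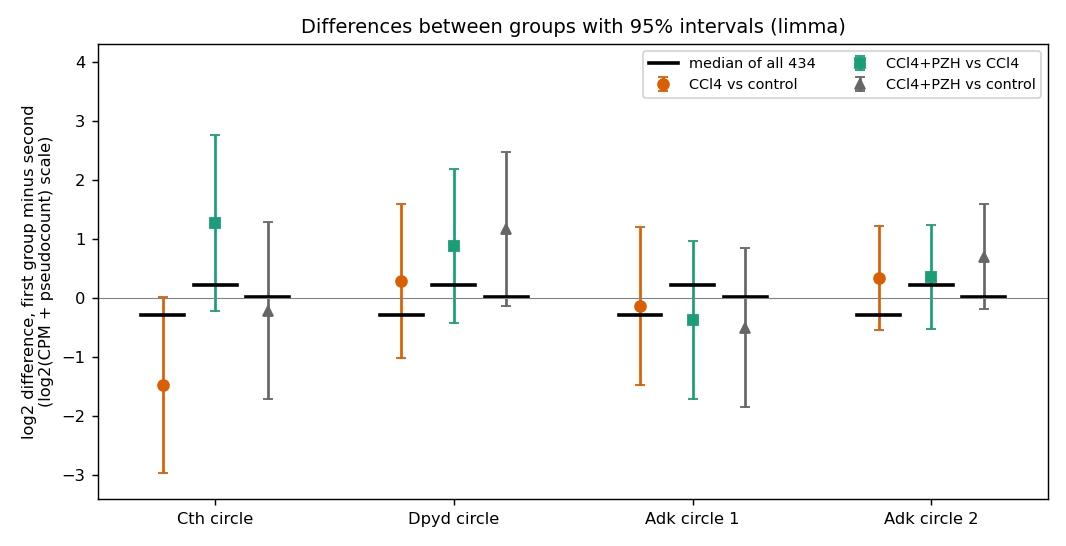
Points are log2 differences on the log2(CPM + pseudocount) scale, first-named group minus second, with 95% intervals from limma (n = 6 livers per group), and black bars are the median of all 434. Every interval includes 0; that of Cth in CCl4 against control reaches from −2.97 to 0.01.

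Few other genes of the same pathways host a listed circular RNA. Of 176 genes in 4 lists (methionine, cysteine and glutathione; pyrimidine; adenosine and purine; other amino acid and urea cycle genes), 10 hosted 13 circular RNAs, 9 of them outside Cth, Dpyd and Adk. In each of the 3 comparisons 0 of the 13 rose and 0 fell. Limma called 0.691%, 0% and 0.23% of all 434 in CCl4 against control, CCl4+PZH against CCl4 and CCl4+PZH against control. Against such shares 0 of 13 is no result about these pathways. In CCl4 against control 11 of the 13 had negative values (median −0.42), in CCl4+PZH against CCl4 9 had positive values (median 0.53), and in CCl4+PZH against control 8 had negative values (median −0.21). Over all 434 the shares of positive values were 37.1%, 69.8% and 52.3% in these comparisons. The 13 include the 4 of Cth, Dpyd and Adk and 3 of Bckdhb, so they are not independent of each other or of the values above. Among 33 methionine, cysteine and glutathione genes Cth was the only host. Among 27 pyrimidine genes the hosts were Dpyd and Upp2, a uridine phosphorylase that releases uracil.

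Among 46 adenosine and purine genes the hosts were Adk and Uox, urate oxidase, which in mice turns the uric acid made from purines into a form that leads to allantoin. The circular RNA of Uox, at 146610270 to 146612571 of chromosome 3, averaged 0.27 ± 0.331 CPM in CCl4+PZH livers, 0.266 ± 0.349 CPM in CCl4 livers and 0.848 ± 0.994 CPM in controls (SD, n = 6 each). Its log2 difference was −1.24 for CCl4 against control (limma SE 0.70, adjusted p = 0.6), and −1.12 for CCl4+PZH against control (limma adjusted p = 0.763). Among 71 other amino acid and urea cycle genes, 5 hosted 7 circular RNAs: Bckdhb with 3, and Kynu, Gls2, Hibadh and Aass with 1 each. The smallest p of that list was for the Bckdhb circle at 83952524 to 83991822 of chromosome 9 in CCl4+PZH against CCl4 (log2 2.45, limma adjusted p = 0.79). The other Bckdhb circles gave log2 0.53 (83952283 to 83991822) and −0.12 (83988776 to 84012619) in that comparison. Bckdhb encodes a subunit of the complex that degrades branched-chain keto acids.

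For each of the 4, the circular RNAs of other hosts with the most similar pattern per 1000 table reads over the 18 libraries were taken by Spearman's rho, as a description without a test. For the Cth circle these lay in Ttc39c (rho 0.70) and in Acvr2a, an activin receptor gene (rho 0.67), of 433 compared. For the Dpyd circle they lay in Map2k1, a MAP kinase kinase gene (rho 0.77), and in the Y-linked gene Uty (rho 0.62). For Adk circle 1 they lay in Lncpint (rho 0.57) and Etv6, a transcription factor gene (rho 0.56), and for Adk circle 2 in Amn1 (rho 0.66) and Fbxw4 (rho 0.66), of 432 compared. The median rho over all compared was between −0.01 and 0.02. The counts behind these values are small, 15 to 132 reads for the 4 and 25 to 238 reads for the circular RNAs set beside them, and the highest of so many compared is high by selection.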

How the data were processed

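The authors deposited a CPM table with 434 circular RNAs, each identified by its coordinates and with no strand. Per the labels' protocols, liver RNA extracted with TRIzol was depleted of ribosomal RNA and sequenced as paired ends of 150 bp. The submitters' processing notes name GRCm38, the aligners Bowtie2 2.5.1 and HISAT2 2.2.1, the assembler StringTie 2.1.5, the trimmer cutadapt 4.2 and, for read quality, FastQC 0.11.9. The caller, filter and CPM total are not given in the sources. All 7812 values (100%) lay within 0.1 of a whole multiple of the value of 1 read, and 25803 reads were recovered; all 45 pairs of libraries within a group differed beyond sampling noise (chi-square over degrees of freedom 2.11 or more).

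Members were found by position in the gene table of GRCm38.p6. limma 3.58.1 (R 4.3.3) was fitted to log2(CPM + 0.13655), the median smallest non-zero value, with all 18 libraries, 3 group means and an intensity trend. All tests are two-sided, and p-values carry Benjamini-Hochberg adjustment over all 434. The filter (above 0 in 6 or more libraries) removed 0. The spread was taken wholly from the trend, so a row's own spread did not enter its SE; exact permutation tests over the 924 splits of 6 against 6, whose smallest p is 0.00216, use the row's own values and, per 1000 table reads, log2(value + 1). Pairs of members were compared by 100000 sign changes. edgeR 4.0.16 and DESeq2 1.42.0 were run on the recovered reads. The fits were tested on simulated counts with the same dispersion for every row, which checks the code and not the values given here. All 4 members are named, with the pathway list member of smallest p and the 2 most similar circular RNAs per member; Upp2, Kynu, Gls2, Hibadh and Aass are named as hosts only. Members and lists were chosen with earlier results of these data known. Python 3.11.15 was used with scipy 1.17.1, numpy 2.4.6, matplotlib 3.10.9 and pandas 2.3.3.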

Additional observations from a re-analysis of the deposited data

Results flagged for a closer look

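Dixon's test (95% level) asks how far the highest or lowest library of a group of 6 lies from its neighbour, relative to the range. It was passed in 4 of 24 sets (4 circular RNAs, 3 groups, 2 scales), all in CPM. About 1.2 would pass by chance under a normal distribution, a rough guide for values with so many zeros. Adk circle 1 stood at 0.856 CPM in CCl4 5, against 0.292 CPM as the next value of its group. Adk circle 2 stood at 0.411 CPM in CCl4 4, against 0.143 CPM, and at 0.203 CPM in control 8, against 0.0449 CPM. The Dpyd circle stood at 0.774 CPM in control 4, the library of highest summed CPM, against 0.203 CPM. These are 7, 3, 2 and 4 reads.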

How the results depend on the processing

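Each comparison was repeated under 32 alternatives, 18 of which left out 1 library; edgeR with the implied totals was added after seeing the data. Of 378 log2 values of the 4 circular RNAs, 365 kept their sign, 13 turned and 0 passed the threshold. Part of the 365 could not turn, because the alternative repeats the main log2 value. These are the 2 changes of filter, the exact test, the fit of only the groups compared, and leaving out libraries of the group not compared. Such repeats are no evidence that a sign holds. With them counted, the Cth circle stayed negative in CCl4 against control under all 32 (−2.07 to −1.01, adjusted p 0.18 to 0.868). It stayed positive in CCl4+PZH against CCl4 (0.77 to 1.73, adjusted p 0.511 to 0.997). In CCl4+PZH against control it turned without controls 2, 3 and 4 (0.15), with array weights (0.27) and with the replicate block (0.30), and ran from −0.62 to 0.18 when 1 library was left out. Adk circle 1 in CCl4 against control turned when scaled to the reads of the table (0.16), with quantile normalization (0.15) and with the replicate block (0.0085), and ran from −0.44 to 0.14 when 1 library was left out. The Dpyd circle there ran from −0.094, without CCl4 2, to 0.70. Dpyd and Adk circle 2 have no value where 12 libraries above 0 were asked for. The causes were not tested. The labels do not say whether same-numbered libraries share more than the number. Correlations of their deviations ran from −0.154 to 0.079, and 1 of 18 libraries correlated best with its own number. The block gave 1 call over the whole table for CCl4 against control, against 3 without it. Calls over the whole table ran from 0 to 6, 0 to 0 and 0 to 3 in the 3 comparisons; for CCl4 against control limma called 3, edgeR 5 and DESeq2 2. The reads, 0 to 25 per library for each of the 4, limit their values.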
